A study of Homo sapiens with 4 samples.

Results

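Small proline-rich protein (SPRR) genes and genes of mucosal antiproteases were examined in HCT116 cells, a human colorectal cancer line, after knockdown of NUDT21. The 9 genes were SPRR1A, SPRR1B, SPRR2A, SPRR2D, SPRR2E, SPRR2F and SPRR3, and the antiprotease genes SLPI and PI3, out of 20003 genes with a symbol in the files. They were chosen by gene family, with the difference between the groups in these same libraries already known, so their levels and ratios are a description and carry no test. There were 2 groups of 2 libraries. The cells of shNUDT21 1 and shNUDT21 5 carried a short hairpin RNA against NUDT21, labelled as a knockdown, and those of shPLKO 1 and shPLKO 2 carried the control vector and were labelled wild type. The series description calls the control shScramble. All cells were unstimulated, with no treatment given. The labels say neither whether 1 and 5 name hairpins or replicates nor whether cultures were separate, so the p-values reflect the spread between 2 libraries a group, possibly of technical origin.

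SPRR proteins are short, proline-rich proteins that transglutaminases cross-link into the cornified envelope, the protein shell of the outermost cells of squamous epithelia. Their genes lie side by side in the epidermal differentiation complex on chromosome 1, and injured or inflamed epithelia of other kinds also switch some of them on. SLPI and PI3, which encodes elafin, are small secreted inhibitors of serine proteases with whey acidic protein domains, and neutrophil elastase is a target of both. Elafin is also a transglutaminase substrate. The NUDT21 protein belongs to cleavage factor Im, recognises UGUA in pre-mRNA and takes part in the choice of the polyadenylation site.

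Levels are given as RPKM, a read count divided by the length of the gene model and by the library's depth. Library totals recovered from the values lay between 29963980 and 30459886 reads. NUDT21 stood at 3.96 and 3.0 RPKM in shNUDT21 1 and 5, against 24.3 and 26.9 RPKM in shPLKO 1 and 2, so that 15.5% and 11.7% of the control mean was left. Of the markers of a colon epithelial line, EPCAM (162 and 180 RPKM in shNUDT21, 130 and 132 RPKM in shPLKO) and CDH1 were present in every library. VIL1 and LGALS4, genes of differentiated enterocytes, were at or under 0.133 RPKM in every library. KRT8 and KRT18, the keratin pair of simple epithelia, were the markers at the highest level. Both fell, to 0.326 and 0.329 of the control mean (limma adjusted p 0.0406 each). They were the only calls among the 6 tested of the 8 markers in the files. Over all genes tested, 2.61% were called higher and 3.21% lower. In 3 of the 8, EPCAM and CDH1 among them, both shNUDT21 libraries stood above both shPLKO libraries, and in 3 both stood below. The shares over all genes above 0 in a library were 29.2% and 28.6%.

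SPRR2D had the highest level of the SPRR genes in every library. It had 50.2 and 35.6 RPKM in shNUDT21 1 and 5 (1083 and 762 reads), while shPLKO 1 and 2 had 2.80 and 2.40 RPKM (61 and 52 reads). The groups were far apart, and within each group the libraries differed much less than the groups did. The means were 42.9 ± 10.3 RPKM in shNUDT21 and 2.60 ± 0.284 RPKM in shPLKO (SD, n = 2 each), a ratio of 16.5. On the log2(RPKM + 1) scale the difference was 3.59 (SE 0.20), the highest of the 11124 genes that averaged 1 RPKM or more and were tested.

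SPRR2A and SPRR2E, close relatives of SPRR2D, were near the limit of detection in control cells. SPRR2A had 1.07 and 0.394 RPKM in shNUDT21 1 and 5 (22 and 8 reads), against 0.0485 and 0.0487 RPKM in shPLKO 1 and 2 (1 read each). Pooled over each group, the ratio of its read rates was 15.1, with a 95% counting interval of 3.84 to 131. SPRR2E had 1.21 and 0.196 RPKM in shNUDT21 1 and 5 (25 and 4 reads), against 0.0964 and 0.0485 RPKM in shPLKO 1 and 2 (2 and 1 reads). For SPRR2E the knockdown libraries were both above both controls, but shNUDT21 5 lay close to shPLKO 1, and their counting intervals overlapped (0.0534 to 0.502 and 0.0117 to 0.348 RPKM). The pooled ratio was 9.76 (counting interval 3.02 to 50). SPRR2F, the last SPRR2 gene of the set, was at 0.0846 RPKM in shNUDT21 1 and 0.0840 RPKM in shPLKO 1 and at 0 in shNUDT21 5 and shPLKO 2. That is at most 2 reads in any library, so no difference was detectable, and the limit of 3 reads that a count of 0 allows is 0.128 RPKM in shNUDT21 5. No molecular identifiers were used, so these intervals and limits describe counting error alone.

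The SPRR2 genes are so alike that reads can fit several of them, and their coding sequences show how little separates them. Each is 219 bases long in GENCODE v29, on the minus strand of chromosome 1 in GRCh38, and capitals mark the bases that differ from SPRR2D. SPRR2A differs from SPRR2D at 4 bases, SPRR2E at 3 and SPRR2F at 5. The sequences run from the start to the stop codon, at chr1:153040128-153040346, chr1:153056517-153056735 and chr1:153093533-153093751.
SPRR2D: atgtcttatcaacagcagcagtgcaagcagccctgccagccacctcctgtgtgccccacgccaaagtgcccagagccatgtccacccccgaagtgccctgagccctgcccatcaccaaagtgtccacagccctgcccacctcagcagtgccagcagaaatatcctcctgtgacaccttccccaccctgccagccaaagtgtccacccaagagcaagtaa
SPRR2A: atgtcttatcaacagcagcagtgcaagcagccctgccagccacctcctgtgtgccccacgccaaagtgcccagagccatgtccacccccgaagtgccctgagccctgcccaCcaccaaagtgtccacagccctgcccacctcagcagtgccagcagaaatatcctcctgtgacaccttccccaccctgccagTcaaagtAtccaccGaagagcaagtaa
SPRR2E: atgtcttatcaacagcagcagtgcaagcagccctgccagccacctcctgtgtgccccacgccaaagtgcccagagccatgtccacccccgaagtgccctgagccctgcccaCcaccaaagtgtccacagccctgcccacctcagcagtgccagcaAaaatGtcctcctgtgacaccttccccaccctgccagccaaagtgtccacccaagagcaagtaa

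Whole annotated transcripts, coding and untranslated parts together, were also compared. Of the distinct windows of 36 bases in the annotated SPRR2A transcript, 29.4% occurred letter for letter in an SPRR2D transcript, and 20.1% of those in SPRR2E did. At 75 bases these shares were 11.7% and 8.58%. Neither the read length nor the treatment of reads with several matches is known here. SPRR2A was at 2.14% and 1.11% of the SPRR2D level in shNUDT21 1 and 5, and at 1.73% and 2.03% in shPLKO 1 and 2. SPRR2E was at 2.42% and 0.55% in shNUDT21 1 and 5, and at 3.44% and 2.02% in shPLKO 1 and 2. The shares of the control libraries rest on 1 or 2 reads for SPRR2A and SPRR2E. Counted against every other annotated gene, 45.3% of the 36-base windows of SPRR2D and 44.4% of those of SPRR2A were shared. The part of shared reads in the SPRR2 levels, that of SPRR2D included, was not tested. Under the same search, SPRR3, SLPI and PI3 shared 0 windows of 36 bases with any other annotated gene.

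The SPRR1 pair was almost silent in control cells. SPRR1B, a cornified envelope precursor, had 4.43 and 6.31 RPKM in shNUDT21 1 and 5 (83 and 117 reads), against 0.159 and 0.213 RPKM in shPLKO 1 and 2 (3 and 4 reads). The groups did not come near each other, and the counting intervals of the knockdown libraries (3.53 to 5.50 and 5.22 to 7.56 RPKM) lay above those of the controls, which ended at 0.546 RPKM. Its means were 5.37 ± 1.33 RPKM in shNUDT21 and 0.186 ± 0.0383 RPKM in shPLKO (SD, n = 2 each). The pooled ratio was 28.8, with a counting interval of 13.7 to 72.7, and the difference on the log2(RPKM + 1) scale, which understates the change of low genes, was 2.41 (SE 0.18). SPRR1A, its paralog, had 1.01 and 1.94 RPKM in shNUDT21 1 and 5 (20 and 38 reads), against 0.1 and 0.0504 RPKM in shPLKO 1 and 2 (2 and 1 reads). Both knockdown libraries were again above both controls, with a pooled ratio of 19.5 (counting interval 6.35 to 97.4). Of the windows of 36 bases in the annotated SPRR1B transcript, 8.21% were shared with SPRR1A. Of those in the SPRR1A entry, which is only 270 bases long, 20.4% were shared with SPRR1B. At 50 bases the share for SPRR1A was 11.3%. The part of shared reads in the SPRR1A level was not tested.

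SPRR3, a cornified envelope protein typical of the oesophagus and oral mucosa, stayed very low. It had 0.134 and 0.169 RPKM in shNUDT21 1 and 5 (4 and 5 reads), against 0.0333 RPKM in shPLKO 1 (1 read) and 0 in shPLKO 2. The pooled ratio was 9.08, but its counting interval ran from 1.26 to 398. Summed over the 7 SPRR genes, the level was 58.1 and 44.6 RPKM in shNUDT21 1 and 5, against 3.33 and 2.76 RPKM in shPLKO 1 and 2. SPRR2D made up 86.3% and 79.8% of that sum in shNUDT21 1 and 5, against 84.3% and 86.9% in shPLKO 1 and 2. So SPRR2D carried most of the summed SPRR level in both groups, with the part of shared reads in it not tested. The share of SPRR1B was 7.63% and 14.1% in shNUDT21 1 and 5, against 4.78% and 7.71% in shPLKO 1 and 2.

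SLPI differed from the SPRR genes in being plainly expressed in control cells. It had 79.1 and 59.4 RPKM in shNUDT21 1 and 5 (1425 and 1061 reads), against 14.5 and 13.6 RPKM in shPLKO 1 and 2 (263 and 245 reads). Both knockdown libraries were above both controls by a wide margin. The means were 69.2 ± 13.9 RPKM in shNUDT21 and 14 ± 0.653 RPKM in shPLKO (SD, n = 2 each), a ratio of 4.94, and the log2(RPKM + 1) difference was 2.21 (SE 0.18). Among the 11124 genes, SLPI ranked 913 by mean level in shNUDT21 and 4215 in shPLKO. PI3, the other antiprotease, was at 0.0597 RPKM in shNUDT21 1 and 0 in shNUDT21 5, against 0.0593 and 0.0596 RPKM in shPLKO 1 and 2. That is 1 read or none per library. The limit of 3 reads that the count of 0 in shNUDT21 5 allows is 0.181 RPKM, and no difference was detectable at this depth.

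**Figure D1:**
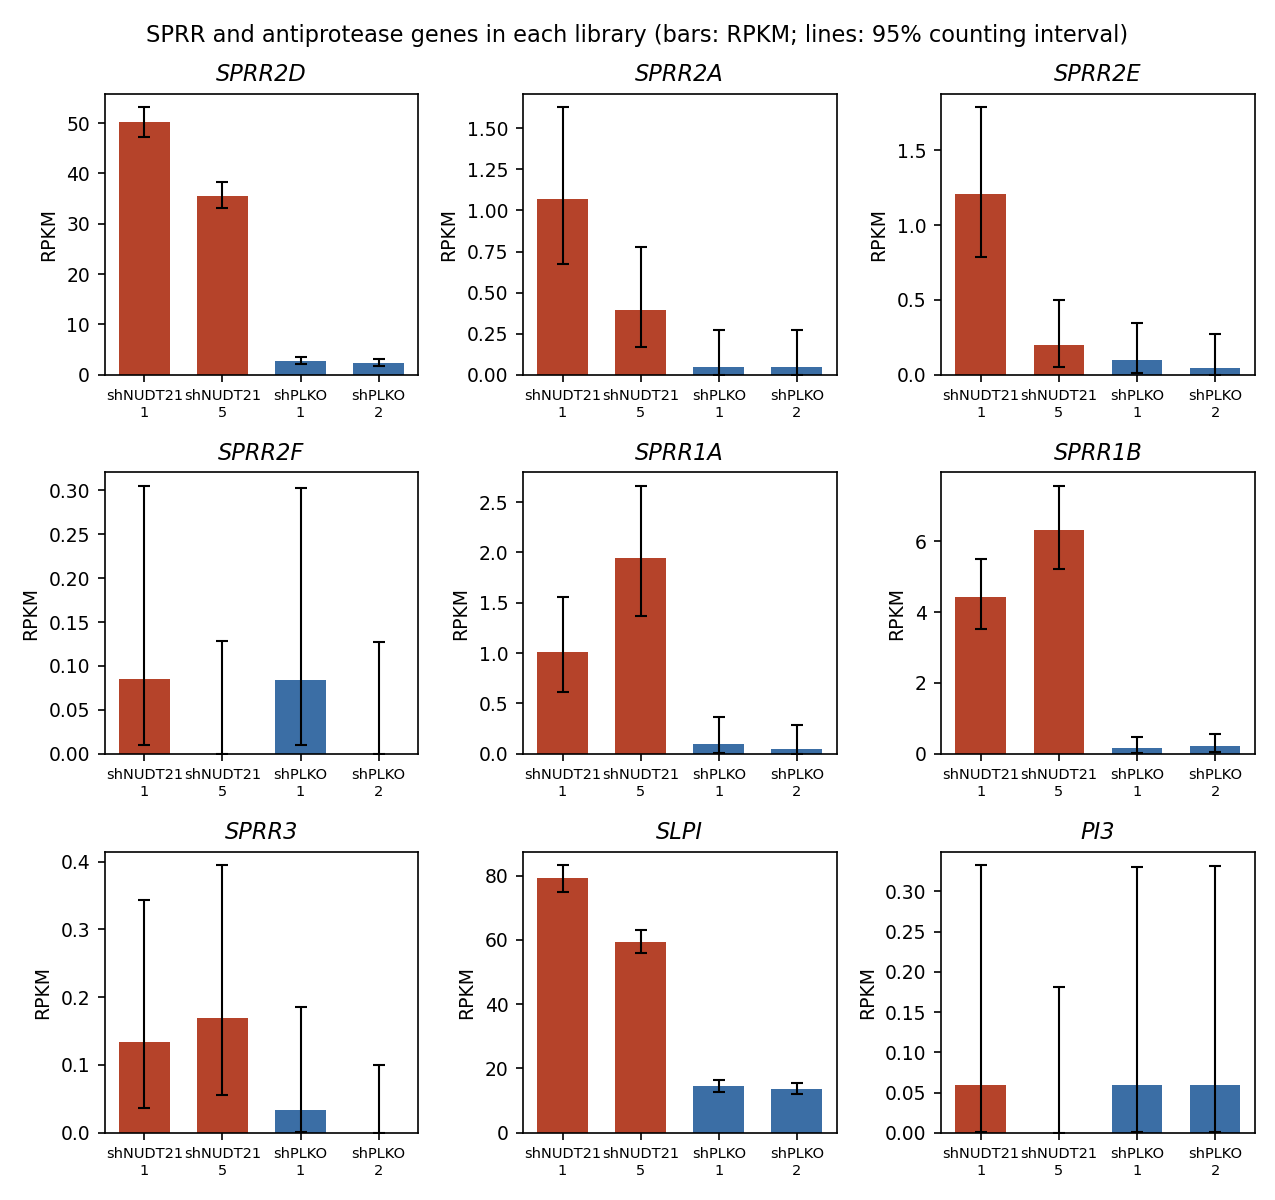
RPKM of each of the 9 genes in each library, with the 2 shNUDT21 libraries in red on the left and the 2 shPLKO libraries in blue on the right of each panel; lines are 95% counting intervals from the recovered reads, or end at the limit of 3 reads where the count is 0, and each panel has its own scale from 0. SPRR2D reaches 50.2 RPKM and SLPI 79.1 RPKM in shNUDT21 1, while SPRR2F and PI3 stay under 0.1 RPKM in every library.

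In 7 of the 9 genes both shNUDT21 libraries were above both shPLKO libraries, in SPRR2F and PI3 the groups overlapped, and in 0 were both below. Over the 17606 genes above 0 in a library, 29.2% stood above in this way and 28.6% below. Only 3 of the 9, SPRR2D, SPRR1B and SLPI, reached the mean of 1 RPKM needed for the test, and SPRR1B did so only through the knockdown libraries. The limma fit called all 3 higher, where 2.61% of the genes tested were called higher and 3.21% lower. Since the genes were chosen on this contrast, nothing is read from these counts. Without shPLKO 1 the fit called SPRR2D alone of the 3, and without shPLKO 2 it called 0 of them.

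**Figure D2:**
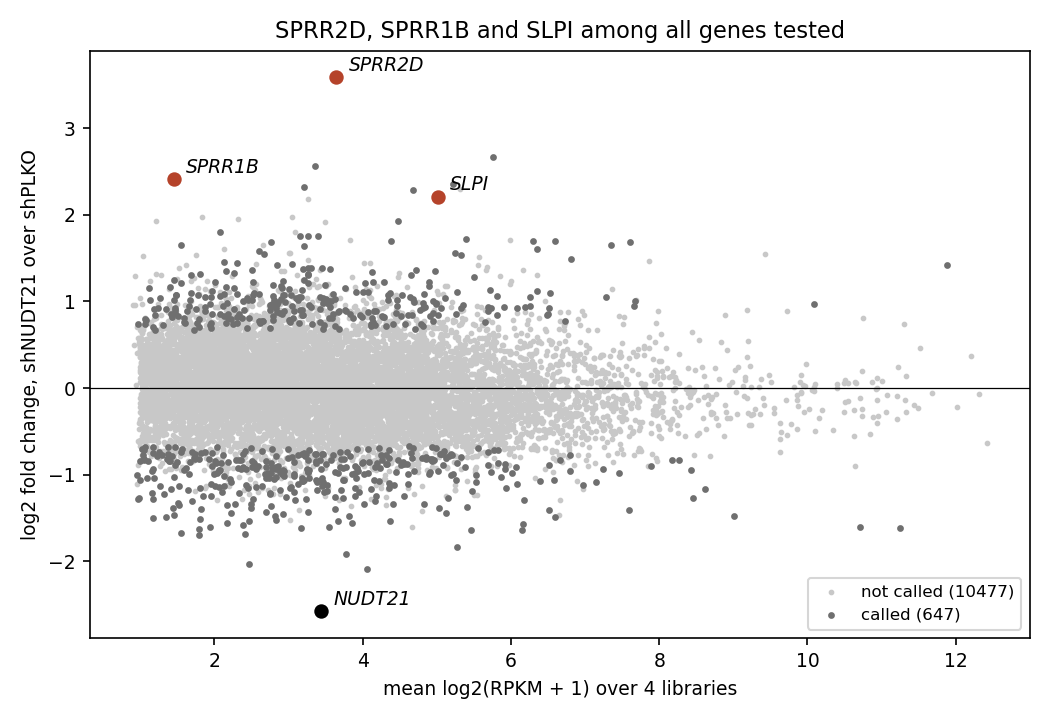
Difference between shNUDT21 and shPLKO on the log2(RPKM + 1) scale, against the mean level over the 4 libraries, for the 11124 genes tested; dark points are the 647 called genes. SPRR2D stands at the top at 3.59, SPRR1B at 2.41 and SLPI at 2.21, and NUDT21 is at the bottom at -2.58.

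The knockdown libraries did not order the genes in the same way. SPRR1A and SPRR1B were higher in shNUDT21 5 than in shNUDT21 1, by ratios of 1.92 (counting interval 1.09 to 3.48) and 1.42 (1.06 to 1.91). SPRR2D, SPRR2A, SPRR2E and SLPI were lower in shNUDT21 5 than in shNUDT21 1. The ratio was 0.71 for SPRR2D (0.646 to 0.78) and 0.752 for SLPI (0.693 to 0.814). It was 0.367 for SPRR2A (0.141 to 0.856) and 0.161 for SPRR2E (0.0408 to 0.468). Thus SPRR1A and SPRR1B went the opposite way from SPRR2D, SPRR2A and SPRR2E between these libraries, each by more than counting error. SPRR2F, with 2 reads in shNUDT21 1 and 0 in shNUDT21 5, showed no direction beyond it (the interval of the ratio ran up to 5.37). SPRR3 had a ratio of 1.26 with an interval from 0.272 to 6.36, which leaves its direction undetermined. NUDT21 itself was lower in shNUDT21 5, with a ratio of 0.757 (0.663 to 0.864). With 1 library on each side these ratios compare libraries only, and relatives that may share reads are not separate observations.

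**Figure D3:**
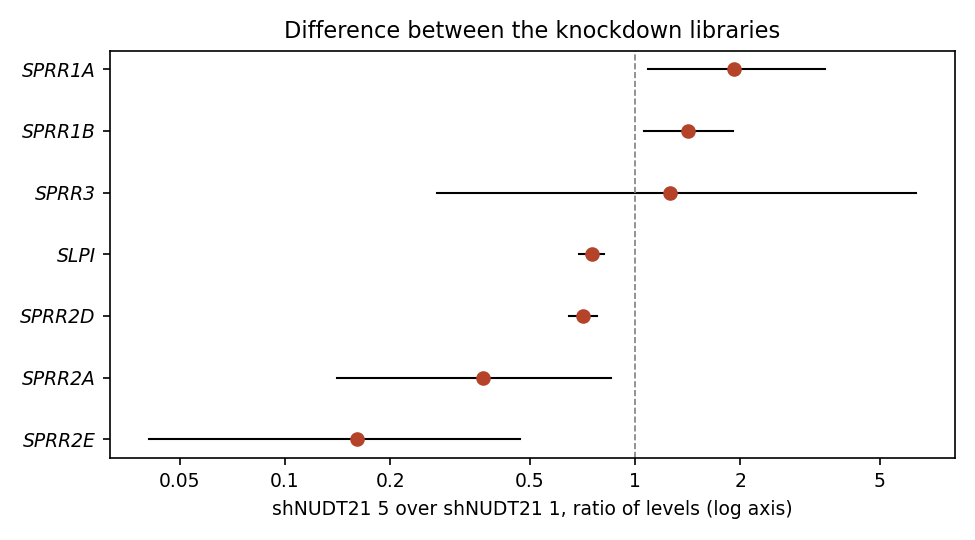
Level in shNUDT21 5 over the level in shNUDT21 1 for 7 genes on a log axis (SPRR2F and PI3, with 0 reads in shNUDT21 5, are not drawn), with points for the ratio and lines for the 95% counting interval. SPRR1A (1.92) and SPRR1B (1.42) lie right of 1, and SLPI (0.752), SPRR2D (0.71), SPRR2A (0.367) and SPRR2E (0.161) lie left of it.

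Promoters are shown for SPRR1A, SPRR1B and SPRR2A, which stood higher in both shNUDT21 libraries than in both controls. That of SPRR2F, the relative that stayed at the detection limit, is shown beside them. RefSeq entries were matched for 5 of the 9 genes, in build GRCh38.p14: these 4 and SPRR3. None was matched for SPRR2D, SPRR2E, SLPI or PI3. Each sequence is the 250 bases before the annotated transcript start, at chr1:152983831-152984080 and chr1:153030953-153031202 on the plus strand, and at chr1:153057513-153057762 and chr1:153113517-153113766 on the minus strand. Capitals mark matches, on either strand, to the AP-1 motif TGANTCA, the Ets motif AGGAAG, the octamer ATTTGCAT and the TATA box TATAAA.
SPRR1A: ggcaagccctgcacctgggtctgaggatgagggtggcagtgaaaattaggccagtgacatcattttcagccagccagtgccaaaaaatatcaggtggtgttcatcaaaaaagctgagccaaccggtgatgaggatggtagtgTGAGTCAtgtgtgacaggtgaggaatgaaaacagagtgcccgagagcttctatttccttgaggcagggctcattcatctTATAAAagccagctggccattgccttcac
SPRR1B: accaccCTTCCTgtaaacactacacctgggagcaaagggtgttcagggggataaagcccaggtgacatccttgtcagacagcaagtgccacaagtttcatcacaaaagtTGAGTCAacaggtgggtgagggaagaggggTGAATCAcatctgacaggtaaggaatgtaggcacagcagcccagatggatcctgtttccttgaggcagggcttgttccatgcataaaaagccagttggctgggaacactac
SPRR2A: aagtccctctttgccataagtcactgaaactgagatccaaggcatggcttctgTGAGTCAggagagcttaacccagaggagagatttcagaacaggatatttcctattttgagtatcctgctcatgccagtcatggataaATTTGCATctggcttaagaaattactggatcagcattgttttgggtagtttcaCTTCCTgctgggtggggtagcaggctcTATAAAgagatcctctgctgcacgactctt
SPRR2F: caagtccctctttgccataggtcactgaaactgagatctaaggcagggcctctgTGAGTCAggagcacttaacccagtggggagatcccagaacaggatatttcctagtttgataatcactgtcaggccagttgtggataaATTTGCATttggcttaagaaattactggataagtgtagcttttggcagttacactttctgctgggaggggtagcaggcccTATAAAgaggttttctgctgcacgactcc

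AP-1, a dimer of JUN and FOS proteins, was matched in all 5 promoters, against 6.6% of 27305 RefSeq promoters of the same length. The match lay 108 bases upstream of the start in SPRR1A, 170 in SPRR3, 197 in SPRR2A and 196 in SPRR2F, and SPRR1B had matches at 141 and 111. The octamer, the binding motif of POU factors, was matched in SPRR2A and SPRR2F, against 1.66% of all promoters. A TATA box was matched in 4 of the 5, against 11.1%, and the Ets motif in 3 of the 5, against 28.7%. These matches did not overlap each other. The grainyhead motif AACCGGTT and the C/EBP motif TTGCNNAA were matched in 0 of the 5, against 0.106% and 9.13% of all promoters. SPRR2A and SPRR2F were identical at 85.7% of aligned bases, and the Ets match 57 bases upstream in SPRR2A had no counterpart in SPRR2F. The motifs were chosen with the sequences in view, and a match is not evidence of binding. Since the 5 promoters are of related genes, their matches are not separate observations. Any part of these matches in the levels was not tested.

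**Figure D4:**
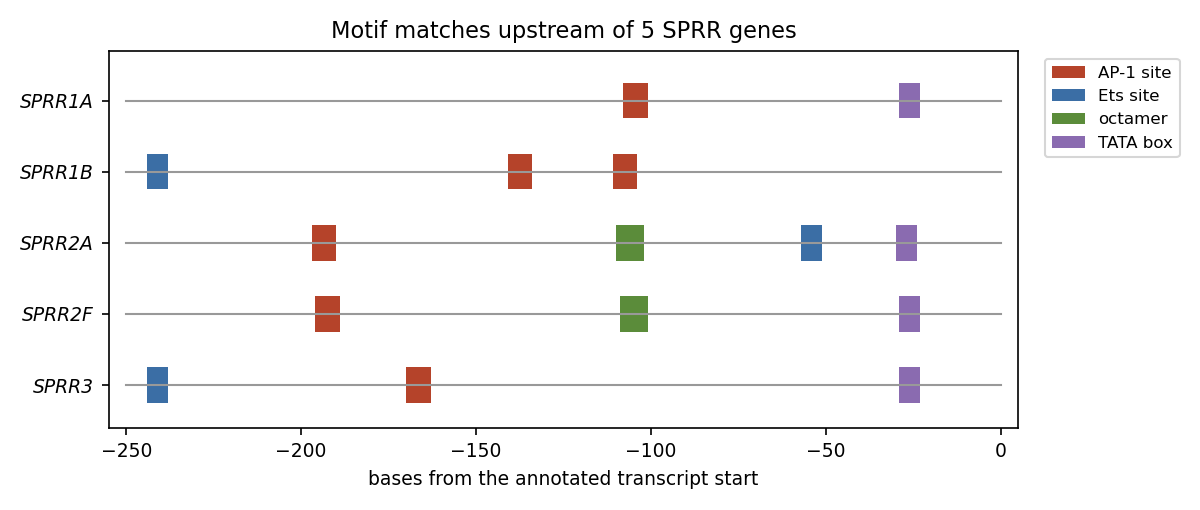
Positions of motif matches in the 250 bases before the annotated start of 5 SPRR genes, in bases from the start. Each of the 5 has an AP-1 match, between 108 and 197 bases upstream, and SPRR1B has a further one at 141.

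Among 9 genes of AP-1 subunits and the related ATF3 and BATF, 8 were tested, 1 rose and 1 fell. Over all genes tested, 2.61% were called higher and 3.21% lower. In 4 of the 9 both shNUDT21 libraries stood above both shPLKO libraries, and in 3 both stood below, against 29.2% and 28.6% of all genes. JUND rose to 222 and 223 RPKM in shNUDT21 1 and 5, against 106 and 107 RPKM in shPLKO 1 and 2 (ratio 2.09, limma adjusted p 0.0406). FOS fell to 10.9 and 11.2 RPKM in shNUDT21, against 34.3 and 33.7 RPKM in shPLKO (ratio 0.326, limma adjusted p 0.0406). FOSL1, a subunit known from keratinocytes and carcinomas, had 114 and 251 RPKM in shNUDT21 1 and 5, against 96.0 and 91.8 RPKM in shPLKO, and did not pass; it was named after its values were seen. JUNB, the most abundant of them, had a ratio of 1.20 and did not pass (limma adjusted p 0.638).

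Of 21 transcription factors of squamous and surface epithelium, 15 were tested and 0 were called (limma, 8 at an unadjusted p under 0.05). Voom on the recovered reads and median-ratio scaling each called 1 higher, RUNX1 (adjusted p 0.0451 and 0.0489), which was named after its values were seen. The median log2 difference of the 15 was 0.41, against -0.0027 over all genes tested. In 12 of the 21 both shNUDT21 libraries stood above both shPLKO libraries, and in 2 both stood below. The shares over all genes above 0 in a library were 29.2% and 28.6%. ELF3, an Ets factor of surface epithelium, had 90.3 and 75.3 RPKM in shNUDT21 1 and 5, against 87.2 and 87.6 RPKM in shPLKO. KLF5, a zinc finger factor of proliferating epithelium, had 56.2 and 67.9 RPKM in shNUDT21, against 35.5 and 38.1 RPKM in shPLKO, and did not pass (limma adjusted p 0.058).

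Other genes of the cornified envelope were mostly low in these cells, and few could be tested. SPRR2B, SPRR2G and SPRR4 were listed at 0 in all 4 libraries. Of 18 envelope proteins and transglutaminases, 6 were tested and 0 were called (2 had an unadjusted limma p under 0.05, and voom also called 0), with a median log2 difference of -0.15. A count of 0 among 6 is near the background of 2.61%. Of the 16 above 0 in a library, 4 stood with both shNUDT21 libraries above both shPLKO libraries (CSTA, TCHH, TGM1 and FLG, the last under 0.03 RPKM throughout) and 3 with both below (TGM2, CNFN and EVPL), shares near the 29.2% and 28.6% of all genes. TCHH, which encodes the envelope and hair follicle protein trichohyalin, had 0.652 and 0.663 RPKM in shNUDT21, against 0.343 and 0.349 RPKM in shPLKO. TGM2, a transglutaminase of many tissues, had 3.04 and 6.28 RPKM in shNUDT21, against 12.9 and 14 RPKM in shPLKO. These genes were named after their values were seen. PPL, the envelope and desmosome linker periplakin, had 23.0 and 53.8 RPKM in shNUDT21 1 and 5, against 39.1 and 38.7 RPKM in shPLKO, so the control values lay between those of the knockdown libraries. DSP, desmoplakin, had 31.3 and 62.0 RPKM in shNUDT21, against 30.3 and 33.5 RPKM in shPLKO. LOR, which encodes loricrin, was listed at 0 in every library, and IVL, which encodes involucrin, was at 0.0921 and 0.791 RPKM in shNUDT21 1 and 5, against 0.122 and 0.184 RPKM in shPLKO. Of 17 late cornified envelope genes, 0 reached the level for the test and 11 were at 0 in all libraries. LCE1F, at the highest level of them, had 0.664 and 0.614 RPKM in shNUDT21, against 0.933 and 0.497 RPKM in shPLKO.

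Along chromosome 1, from S100A10 to S100A1 in RefSeq order, the files held 59 genes, 7 of them the SPRR genes described. Of the other 52, 39 stayed under 1 RPKM in every library, 19 of these at 0 throughout. Of the 12 tested, 0 were called higher and 1 was called lower by limma, against 2.61% and 3.21% of all genes tested. That gene, S100A1, fell to 0.724 and 1.24 RPKM in shNUDT21, against 6.08 and 4.22 RPKM in shPLKO (limma adjusted p 0.0416). Of the 16 S100 genes of the cluster, which encode calcium-binding proteins, 11 were tested, and S100A1 was the only call (5 at an unadjusted p under 0.05). Of the 14 above 0 in a library, 6 had both shNUDT21 libraries above both shPLKO libraries and 5 had both below. Among all genes above 0 in a library, 29.2% stood above in this way and 28.6% below. S100A6 and S100A11 were the most abundant and did not pass, with ratios of 1.76 and 1.81 (limma adjusted p 0.0674 and 0.0603). On TPM, S100A6 passed as higher (limma adjusted p 0.0459). On chromosome 20, the 14 genes around PI3 and SLPI, 6 on each side and those between, included 6 tested, of which 0 were called (limma). SDC4, a cell surface proteoglycan gene near SLPI, had 145 and 195 RPKM in shNUDT21, against 306 and 324 RPKM in shPLKO (limma adjusted p 0.0603), so it lay in the other direction from SLPI; it was named after its values were seen.

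**Figure D5:**
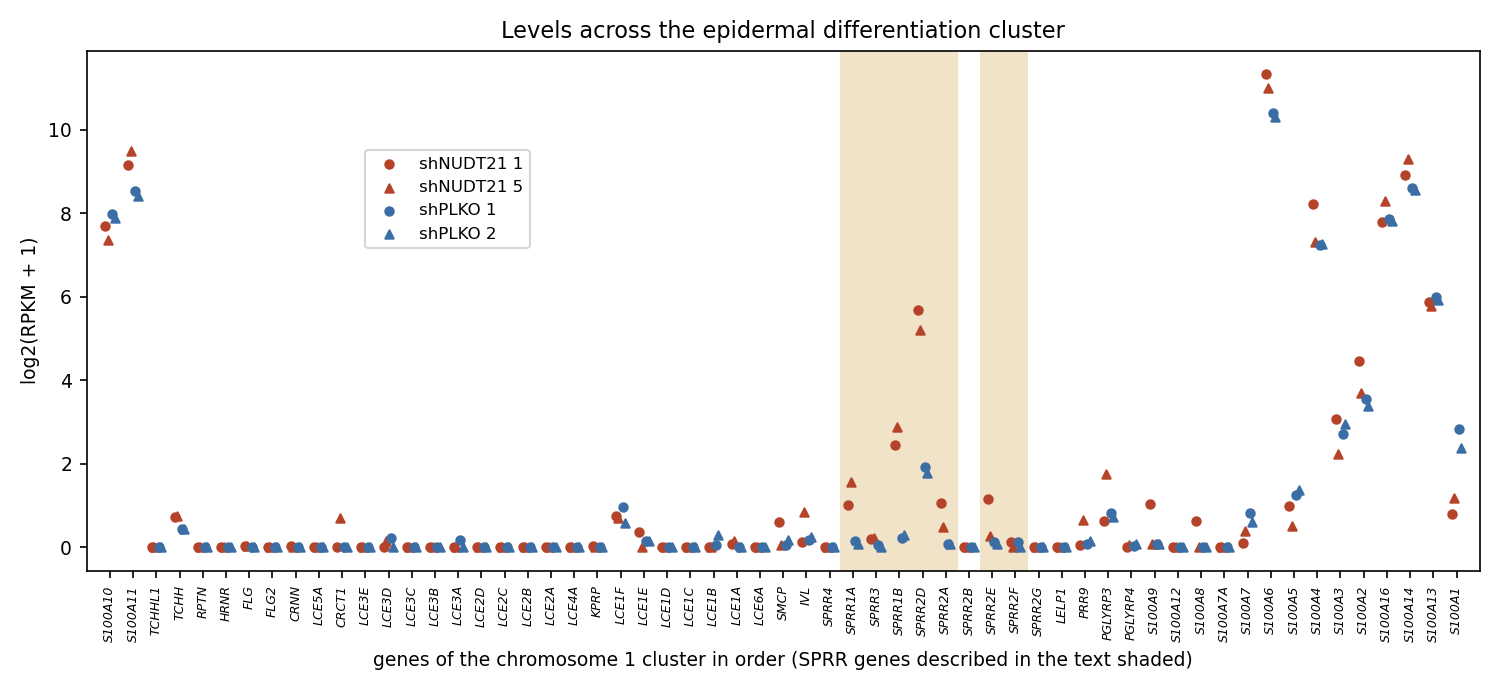
Level on the log2(RPKM + 1) scale of the 59 genes of the chromosome 1 cluster in order, with circles and triangles for the 2 libraries of each group (shNUDT21 red, shPLKO blue) and the 7 SPRR genes shaded. SPRR2D and SPRR1B stand out from neighbours that are mostly under 1 RPKM, while the abundant S100 genes lie at both ends.

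A further list held 17 genes in the files: other whey acidic protein genes, the semenogelins, SPINT3 and SPINT4. Of these, 2 were tested and limma and voom called 0 of them. Both had an unadjusted limma p under 0.05. WFDC2 had 0.409 and 1.53 RPKM in shNUDT21 1 and 5, against 2.44 and 2.80 RPKM in shPLKO, and WFDC3 had 1.11 and 1.82 RPKM in shNUDT21, against 2.86 and 2.47 RPKM in shPLKO. Both lay below the controls, opposite to SLPI, without passing (limma adjusted p 0.110 and 0.106). Of the 13 genes of this list above 0 in a library, 0 had both shNUDT21 libraries above both shPLKO libraries and 4 had both below. The shares over all genes were 29.2% and 28.6%. Of 27 other protease inhibitors, 18 were tested, 1 rose and 2 fell, against 2.61% and 3.21% of all genes tested. In 9 of the 27 both shNUDT21 libraries stood above both shPLKO libraries, and in 10 both stood below. SERPINH1, a collagen chaperone of the serpin family, rose 1.83-fold (limma adjusted p 0.0434). TIMP1, a metalloprotease inhibitor, fell to 95.9 and 144 RPKM in shNUDT21, against 317 and 313 RPKM in shPLKO (limma adjusted p 0.0457; 0.0518 on TPM). SERPINA1, which encodes the elastase inhibitor alpha-1-antitrypsin, fell to 0.356 of the control mean (limma adjusted p 0.0406). With voom, SERPINB8, an intracellular serpin, passed as well (log2 difference 1.27, adjusted p 0.0489); it was named after its values were seen. SPINT2, the inhibitor at the highest level, had a ratio of 0.788 and did not pass.

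Of 23 serine proteases in the files, 13 were tested, 1 rose and 1 fell, against 2.61% and 3.21% of all genes tested. Of the 18 above 0 in a library, 9 had both shNUDT21 libraries above both shPLKO libraries and 3 had both below. The shares over all genes were 29.2% and 28.6%. ELANE and CTSG, which encode the neutrophil proteases elastase and cathepsin G that SLPI inhibits, were listed at 0 in all 4 libraries. PRTN3, which encodes proteinase 3, a target of elafin, fell to 1.17 and 0.936 RPKM in shNUDT21, against 2.67 and 2.44 RPKM in shPLKO (limma adjusted p 0.0457; 0.0654 with voom). PRSS22, an airway tryptase gene, rose 2.11-fold (limma adjusted p 0.0431). ST14 and PRSS8, which encode the membrane proteases matriptase and prostasin, were the most abundant and did not pass. ST14 had 89.7 and 306 RPKM in shNUDT21 1 and 5, against 267 and 271 RPKM in shPLKO. Of 24 mucosal defence genes, 3 were tested and 1 rose, against 2.61% of all genes tested. Of the 20 above 0 in a library, 7 had both shNUDT21 libraries above both shPLKO libraries and 4 had both below. The gene that rose was IL18, to 90.3 and 109 RPKM in shNUDT21, against 51.7 and 51.6 RPKM in shPLKO (limma adjusted p 0.0457). LCN2, a secreted siderophore-binding protein, had a ratio of 1.74 and did not pass (limma adjusted p 0.0729).

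Markers of squamous keratinocytes were measured beside the SPRR genes. Of 15, 8 were tested, 2 rose and 0 fell (limma, 3 at an unadjusted p under 0.05), against 2.61% and 3.21% of all genes tested. In 6 of the 15 both shNUDT21 libraries stood above both shPLKO libraries, and in 0 both stood below, against 29.2% and 28.6% of all genes. The summed level of the 15 was 88.4 and 91.2 RPKM in shNUDT21 1 and 5, against 66.2 and 60.7 RPKM in shPLKO 1 and 2. KRT13, a keratin of mucosal squamous epithelium, rose to 9.0 and 13.8 RPKM in shNUDT21, against 2.68 and 2.87 RPKM in shPLKO (limma adjusted p 0.0406). KRT16, a keratin of stressed and hyperproliferative epidermis, rose 2.52-fold, to 2.93 and 3.50 RPKM in shNUDT21, against 1.09 and 1.46 RPKM in shPLKO (limma adjusted p 0.0485), but did not pass with a pseudocount of 0.1, on TPM or with voom (adjusted p 0.0511, 0.051 and 0.0563). KRT10 and KRT15, the markers at the highest level, did not pass. TP63, the factor that defines the squamous lineage, was at or under 0.0754 RPKM in every library, and none of the 15 was at 0 in all libraries. The part of such cells in the SPRR levels was not tested, and in bulk RNA more cells with a gene on and more RNA per cell cannot be told apart. Leukocyte markers summed to 25.0 and 94.6 RPKM in shNUDT21 and to 45.6 and 47.7 RPKM in shPLKO, nearly all of it CD68, with 0 called of 1 tested. Fibroblast markers summed to 5.32 and 7.96 RPKM in shNUDT21 and to 7.09 and 7.63 RPKM in shPLKO, again with 0 called of 1 tested (limma; 0 of either list at an unadjusted p under 0.05).

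The genes with the most similar pattern were sought among the 11121 other genes tested, by the distance between log2(RPKM + 1) values centred on each gene's mean over the 4 libraries and the mean of SPRR2D, SPRR1B and SLPI. The closest were HMOX1, SCG2, UPP1, LURAP1L and ARL14EPL, at distances of 0.127, 0.279, 0.414, 0.448 and 0.449. The 3 genes that made the mean were themselves at 0.886, 0.533 and 0.555. HMOX1, the inducible heme oxygenase, had 150 and 123 RPKM in shNUDT21, against 21.6 and 19.4 RPKM in shPLKO. SCG2, of secretory granules, had 27.3 and 21.2 RPKM in shNUDT21, against 2.97 and 3.50 RPKM in shPLKO. The measure rests on 4 libraries in 2 groups, and it ranks genes by how near their values lie, with no test.

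The annotated transcripts are short. In GENCODE v29, the longest annotated 3' UTR was 403 bases in SPRR2D, 285 in SPRR1B, 326 in SPRR3 and 176 in both SLPI and PI3, where the median over 11027 genes of at least 1 RPKM was 1339 bases. SPRR2A, SPRR2E and SPRR2F had 404, 398 and 401 bases, and the SPRR1A entry holds a coding part only. UGUA, the motif bound by NUDT21, occurred 0 times in 7 of the 8 annotated 3' UTRs and 4 times in that of SPRR3, against a median of 6 per gene. These counts are not adjusted for length, and all 8 of these 3' UTRs are shorter than the median. A motif count says nothing of binding, and the values do not show which polyadenylation site was used. No exon of another annotated gene overlapped those of the 9 genes.

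The calls given for the lists rest on both controls. Without shPLKO 1 or without shPLKO 2, 0 and 0 of the listed pathway genes passed (limma, 18 and 20 at an unadjusted p under 0.05), and KRT13, KRT16, KRT8, KRT18, NUDT21 and the 5 genes of similar pattern did not pass either.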

How the data were processed

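RNA sequencing of 4 HCT116 libraries was analysed, 2 shNUDT21 and 2 shPLKO. Library preparation used a SMARTer mRNA-Seq kit, per the labels' protocols. Per the submitters' processing notes, Bowtie 0.12.2 and genome build hg18 were named, without their role; the counting tool, its annotation, strand and multiple matches are not given in the sources used. The authors deposited 1 table per library, taken as RPKM, not logged; the headers name no unit, and it was inferred from the values. Of 20030 rows, 27 with a date in place of a symbol were left out.

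Whole reads were recovered from the RPKM steps. The most frequent ratio of values gave relative depths, and annotated transcript lengths gave the total, with 309 genes agreeing on it against 9 for the next. With a tolerance of 0.0001 reads, 17603 of 17606 genes above 0 gave a step, and SPRR2F could hold fewer reads than given. Counting intervals are exact Poisson, or exact conditional for ratios.

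Values on the log2(RPKM + 1) scale were tested with limma 3.58.1 in R 4.3.3, two-sided, with the variance trended on intensity, over 11124 genes that averaged 1 RPKM or more, all libraries, no covariate, with Benjamini-Hochberg adjusted p under 0.05. It has 2 residual degrees of freedom, and was tested on simulated data. The simulated reads had the same spread beyond counting in every gene and library. They cannot show how the fit behaves where the spread differs between genes or groups. The members and the lists were chosen with earlier results of these data known. Named list genes are those past the test and the 2 at the highest level. IVL, LOR, ELANE, CTSG, EPCAM, CDH1, VIL1, LGALS4 and TP63 were named beyond this rule, with their values seen. GENCODE v29 and RefSeq, both of another build than hg18, served only for sequences, lengths and gene order. Ratios of libraries within a group were added after the values were seen. Alternatives were a pseudocount of 0.1, no filter, no trend, median-ratio scaling, TPM, voom on the recovered reads and each library left out.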

Additional observations from a re-analysis of the deposited data

How the results depend on the processing

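With no filter on low values limma called 0 genes higher and 0 lower (4762 at an unadjusted p under 0.05), 0 of the 9 members (6) and 0 of the listed pathway genes in either direction (47). Leaving out 1 library moved the calls from 0 to 3737 genes higher and from 0 to 4021 lower, from 0 to 3 members higher, and from 0 to 45 listed genes higher and from 0 to 32 lower. The high counts came without a knockdown library, where the 2 controls alone give the spread and the lone library is assumed to vary like them, and the low ones came without a control (1014 and 1177 genes at an unadjusted p under 0.05). The log2 difference of SPRR1B was 4.24 with a pseudocount of 0.1, 3.27 on TPM and 4.65 with voom, and that of SPRR2D was 3.97, 3.87 and 4.01; a smaller pseudocount weighs low controls more. KRT16 did not pass with a pseudocount of 0.1, on TPM or with voom (adjusted p 0.0511, 0.051 and 0.0563), nor TIMP1 on TPM (0.0518) or PRTN3 with voom (0.0654). No paired analysis was possible because the labels do not pair the libraries of the 2 groups. Depth limits SPRR2F, SPRR3 and PI3, which had at most 5 reads in any library.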

Other observations

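MUC13, a transmembrane mucin of intestinal epithelium from the mucosal defence list, was named after its values were seen. It had 1.30 and 1.85 RPKM in shNUDT21 1 and 5, against 0.0342 and 0.0115 RPKM in shPLKO 1 and 2, under the level needed for the test. PRDM1, a transcription factor that acts in keratinocyte differentiation and also named after its values were seen, had 1.97 and 6.21 RPKM in shNUDT21 1 and 5, against 0.852 and 0.690 RPKM in shPLKO 1 and 2, and did not pass. CSTA, a cystatin built into the cornified envelope and named in the same way, had 22.1 RPKM in shNUDT21 1 and 8.99 RPKM in shNUDT21 5, against 7.37 and 8.73 RPKM in shPLKO 1 and 2, so that 1 library alone stood apart. S100A9, a calprotectin subunit gene of the SPRR cluster, had 1.03 and 0.0578 RPKM in shNUDT21 1 and 5, against 0.0569 and 0.0572 RPKM in shPLKO 1 and 2.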
